A study of Mus musculus with 6 samples.

Results

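The 10 genes described here serve the making of collagen before and just after it leaves the cell. They are the prolyl hydroxylase subunits P4ha1, P4ha2 and P4ha3, the lysyl hydroxylases Plod1, Plod2 and Plod3, the chaperones and folding factors Serpinh1, Fkbp10 and Crtap, and Pcolce, an enhancer of procollagen processing. They were chosen by name for their roles, with earlier results of these data known. All 10 were found among the 17572 protein-coding genes of the count table. RNA sequencing had been done on skin scars of wild-type C57BL/6 mice, sampled 2 weeks after surgery. The hypertrophic scars (HS, 3 libraries) came from wounds on the upper back whose edges were sewn to the rib cage under tension. Normal scars (NS, 3 libraries) came from wounds on the lower back that were closed in place with no tension. Tension and body position therefore differ together between the groups and cannot be told apart. Whether each library is a mouse of its own is not in the labels. The p-values therefore reflect only how far these samples spread, and part of that spread may be technical.

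Collagen chains are modified and folded in the endoplasmic reticulum. Prolyl hydroxylases turn prolines into hydroxyprolines that hold the triple helix together at body temperature, and lysyl hydroxylases make the hydroxylysines from which stable cross-links and sugar attachments form. Both enzyme families need iron, oxygen, 2-oxoglutarate and ascorbate. Chaperones bind the folded or folding helix on its way out, and outside the cell proteases trim the propeptides so that fibrils can assemble. In skin these genes are used chiefly by fibroblasts.

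Summed counts ran from 20375395 to 27859889 per library, so that 1 count was worth at most 0.04908 CPM (counts scaled to a common library size). The table carried skin markers in every library, with 36633 to 74461 counts of the basal keratin Krt14. HS replicate 2 stood nearest to NS. It scored -4.1 on the first principal component of log2 CPM, against -47.3 and -31.5 in the other HS libraries and 26.4 to 28.8 in NS. Counts of calls are therefore also given without it.

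All 10 genes were higher in each HS library than in any NS library, and 6 of them passed the test across all genes. P4ha1, P4ha2, P4ha3, Plod2, Serpinh1 and Fkbp10 rose, none fell, and Plod1, Plod3, Crtap and Pcolce did not pass. With Benjamini-Hochberg adjustment of edgeR's quasi-likelihood p-values, 6.33% of the 14513 genes tested were called higher in HS and 2.51% lower (8.85% in either direction). Values without overlap and higher in HS were found for 17.2% of all genes tested, and values without overlap in either direction for 32.3%. The median log2 fold change was 1.21 over the 10 genes and -0.01 over all genes tested. The count moved with single libraries, as it did for the table as a whole. Without HS replicate 2, the HS library nearest to NS, all 10 were called, in a fit that called 13.5% of all genes higher. Without HS replicate 1 the count was 6 (5.06% of all genes higher), without HS replicate 3 it was 1, Serpinh1 (0.832%), and without NS replicate 1 it was 1, again Serpinh1 (0.446%). It was 0 without NS replicate 2 (0.135%) or NS replicate 3 (0.251%). In the latter 2 fits all 10 genes had an unadjusted p under 0.05, as did 19.8% and 22.2% of all genes in either direction (26.3% with all 6 libraries). DESeq2 on all 6 libraries called all 10, and 11.1% of all genes higher.

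The order of the HS libraries was the same for all 10 genes. HS replicate 1 was highest, HS replicate 3 next and HS replicate 2 lowest each time. The mean log2 difference of the 10 genes from their NS mean was 1.67, 0.68 and 1.30 in HS replicates 1, 2 and 3. In NS, replicate 2 was the highest library for 8 of the 10 genes and replicate 1 the lowest for 8.

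**Figure D1:**
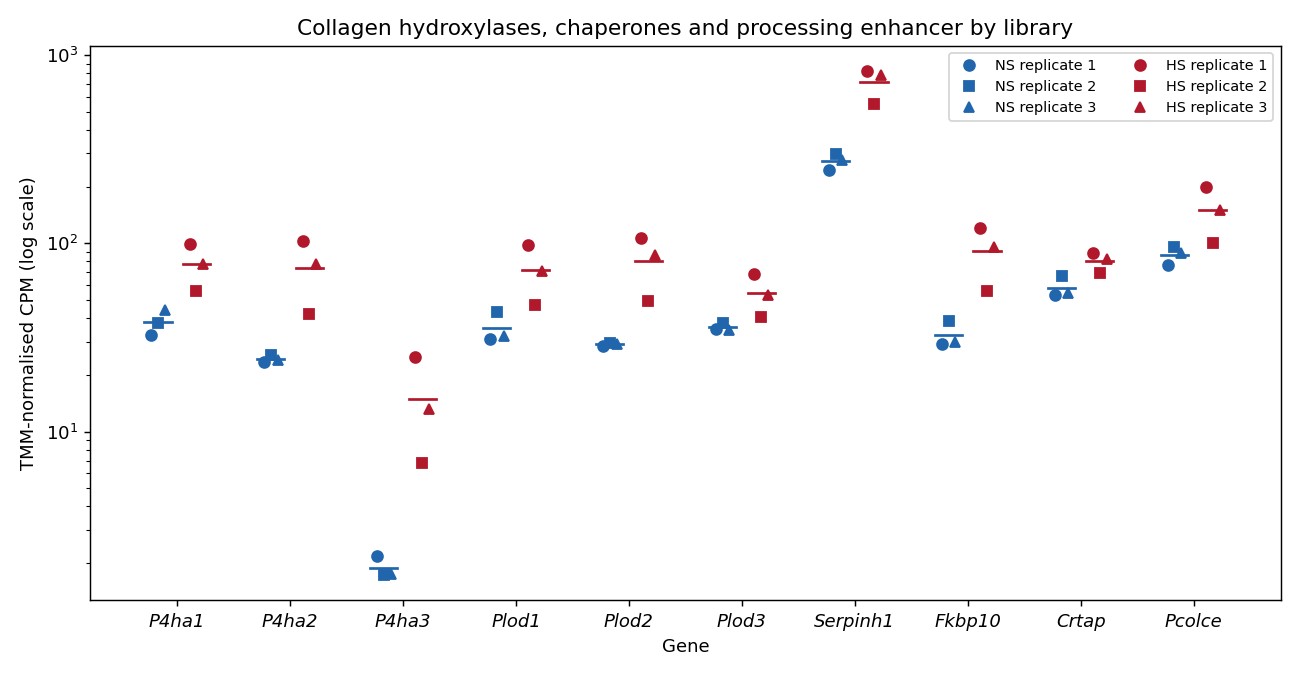
TMM-normalised CPM on a log axis for the 10 genes in the 3 NS libraries (blue) and the 3 HS libraries (red), with a symbol for each replicate number and a line at each group mean. Every red point lies above every blue point of the same gene, and HS replicate 2 (red squares) lies lowest among the red points.

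P4ha1, P4ha2 and P4ha3 encode the catalytic alpha subunits of collagen prolyl 4-hydroxylase, each of which pairs with the protein disulfide isomerase P4hb. All of them rose in HS, and P4ha3 had the largest fold change of the 10 genes. P4ha3 (chromosome 7, 100285520 to 100319699 on mm10, plus strand) stood at 24.9, 6.82 and 13.2 CPM in HS replicates 1, 2 and 3 and at 2.19, 1.73 and 1.76 CPM in NS replicates 1, 2 and 3. Its lowest HS library was 3.12 times its highest NS library, although the HS libraries themselves spread widely. It was 7.91-fold higher in HS, with a log2 fold change of 2.98 ± 0.464 (SE, edgeR adjusted p = 0.01426). The NS values rested on 50, 36 and 44 counts, the fewest of the 10 genes, and with limma-voom P4ha3 did not pass (adjusted p = 0.05487).

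P4ha2 (chromosome 11, 54100095 to 54131665, plus strand) stood at 103, 42.0 and 77.1 CPM in HS and at 23.3, 25.4 and 23.9 CPM in NS. The NS libraries lay close together, and the lowest HS library was 1.65 times the highest of them. The rise was 3.06-fold (log2 fold change 1.61 ± 0.302, SE, edgeR adjusted p = 0.02681). P4ha1 (chromosome 10, 59323296 to 59373304, plus strand), the subunit with the broadest expression across tissues, stood at 99.3, 56.0 and 77.7 CPM in HS and at 32.4, 37.8 and 44.0 CPM in NS. It rose 2.04-fold (log2 fold change 1.03 ± 0.21, SE, edgeR adjusted p = 0.028).

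The makeup of the subunit pool was compared per length. Per kb of exon, P4ha3 made up 16.4%, 9.66% and 11.9% of P4ha transcripts in HS replicates 1 to 3, against 5.67%, 4.0% and 3.72% in NS replicates 1 to 3. By this measure P4ha1 remained the largest share throughout, at 49.7%, 60.5% and 53.3% in HS and 64.0%, 66.5% and 70.9% in NS. By undivided counts P4ha2 exceeded P4ha1 in HS replicate 1 (2733 against 2640). The P4ha1 and P4ha3 shares did not overlap between the groups, while those of P4ha2 did (29.9% to 34.9% in HS, 25.4% to 30.4% in NS). The share of P4ha3 was 8.18 percentage points higher in HS, and that of P4ha1 differed by -12.6 points (HS minus NS). In an exact two-sided permutation test over samples each had p = 0.1, the smallest that 3 against 3 samples can give (0.15 adjusted over the 6 shares of both hydroxylase families).

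The promoter windows of the 3 subunits are shown because these genes of 1 enzyme all rose; no test linked the letters to the changes. Each window of 300 bases spans the RefSeq start on GRCm38.p6, lies mostly before it, and is written in the sense of the gene, with Serpinh1, the most abundant of the 10 genes, beside them. Capitals mark ACGTG on either strand (CACGT on the other), a core that hypoxia-inducible factors bind. Other forms of that core were not searched. Capitals also mark GGGCGG on either strand (CCGCCC on the other), the GC box bound by Sp1-type factors. The 2 motifs shared no base in any window, and adjoining GC boxes in P4ha3 overlap each other. P4ha1 is chr10:59323046-59323345 (plus strand), P4ha2 chr11:54100674-54100973 (plus strand), P4ha3 chr7:100285270-100285569 (plus strand) and Serpinh1 chr7:99353190-99353489 (minus strand).
P4ha1: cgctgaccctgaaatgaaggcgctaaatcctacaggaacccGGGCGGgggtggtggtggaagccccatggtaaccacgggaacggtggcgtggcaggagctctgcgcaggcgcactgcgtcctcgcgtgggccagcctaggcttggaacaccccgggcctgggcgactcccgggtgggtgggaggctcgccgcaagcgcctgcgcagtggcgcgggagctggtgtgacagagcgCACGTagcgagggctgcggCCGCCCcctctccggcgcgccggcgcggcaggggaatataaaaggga
P4ha2: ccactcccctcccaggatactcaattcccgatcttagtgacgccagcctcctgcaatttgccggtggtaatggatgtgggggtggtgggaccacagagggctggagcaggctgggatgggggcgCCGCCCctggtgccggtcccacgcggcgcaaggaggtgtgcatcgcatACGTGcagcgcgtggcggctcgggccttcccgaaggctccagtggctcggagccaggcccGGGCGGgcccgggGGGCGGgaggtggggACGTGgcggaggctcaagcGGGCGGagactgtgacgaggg
P4ha3: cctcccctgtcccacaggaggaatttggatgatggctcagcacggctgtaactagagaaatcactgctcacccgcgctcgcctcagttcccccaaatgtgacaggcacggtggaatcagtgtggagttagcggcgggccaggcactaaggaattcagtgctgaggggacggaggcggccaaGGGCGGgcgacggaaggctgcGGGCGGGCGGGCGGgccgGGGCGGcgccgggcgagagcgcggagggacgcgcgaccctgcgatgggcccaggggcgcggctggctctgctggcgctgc
Serpinh1: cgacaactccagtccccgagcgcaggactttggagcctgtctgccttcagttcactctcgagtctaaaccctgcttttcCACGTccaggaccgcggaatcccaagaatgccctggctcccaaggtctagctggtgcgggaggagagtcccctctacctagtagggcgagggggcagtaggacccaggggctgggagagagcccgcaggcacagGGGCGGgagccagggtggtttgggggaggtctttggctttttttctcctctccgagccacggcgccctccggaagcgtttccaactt

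ACGTG was present once in the P4ha1 window, at position -16, and in the P4ha2 window at positions -78 and 11. Positions are those of the first base of a match in the sense of the gene, counted from 1 at the start. The P4ha3 window held no ACGTG and 5 GC boxes, at positions -69, -48, -44, -40 and -30. Serpinh1 held 1 ACGTG at position -171 and 1 GC box at position -37. Windows were at hand for 8 of the 10 genes, and Plod2 and Fkbp10 had none. ACGTG occurred in 4 of the 8 (P4ha1, P4ha2, Plod3 and Serpinh1) and in 19.6% of all 32851 windows of the same length, and the GC box in 7 of the 8, all but Plod3, and in 35.7% of all windows. The windows held 58.3% to 70.3% G and C, except that of Plod3 at 53.3%, near the median of 52.7% over all windows.

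Plod1, Plod2 and Plod3 encode the lysyl hydroxylases. Plod2 is known for hydroxylating lysines in the ends of the collagen chains, from which the more stable cross-links of scar and bone form. It rose, while its 2 relatives were higher without passing; whether the 3 changes differ was tested only through the shares given after them. Plod2 (chromosome 9, 92542223 to 92608428, plus strand) stood at 106, 49.6 and 86.4 CPM in HS and at 28.6, 29.5 and 29.1 CPM in NS. The NS libraries were nearly equal, and the lowest HS library was 1.68 times the highest NS library. The rise was 2.78-fold (log2 fold change 1.47 ± 0.254, SE, edgeR adjusted p = 0.02017).

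Plod1 (chromosome 4, 147909753 to 147936767, minus strand), which acts on lysines within the helix, stood at 98.0, 46.8 and 71.2 CPM in HS and at 31.0, 43.3 and 32.2 CPM in NS. HS replicate 2 lay only 1.08 times above NS replicate 2. The difference was 2.03-fold and did not pass (log2 fold change 1.02 ± 0.271, SE, edgeR adjusted p = 0.06358). Plod3 (chromosome 5, 136987019 to 136996648, plus strand), which also attaches sugars to hydroxylysine, stood at 68.9, 40.8 and 53.3 CPM in HS and at 35.1, 37.7 and 34.6 CPM in NS. It was 1.52-fold higher without passing (log2 fold change 0.60 ± 0.174, SE, edgeR adjusted p = 0.0648). With 1 library left out, edgeR's adjusted p ran from 0.001126 to 0.1811 for Plod1 and from 0.001274 to 0.1864 for Plod3. Of the 6 such fits each gene passed in 1, the fit without HS replicate 2.

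Within the family, Plod2 took 39.8%, 36.6% and 41.8% of transcripts per kb of exon in HS replicates 1 to 3 and 30.0%, 27.1% and 30.3% in NS replicates 1 to 3. Plod3 took 30.9%, 35.9% and 30.8% in HS and 44.0%, 41.2% and 43.0% in NS. Per kb of exon Plod2 was thus the most abundant lysyl hydroxylase transcript in each HS library, narrowly in HS replicate 2, and Plod3 in each NS library. The order depends on the division by length. By undivided counts Plod1 was highest in NS replicate 2, with 902 against 784 of Plod3 and 614 of Plod2. Plod1 held 27.4% to 29.3% in HS and 26.0% to 31.7% in NS. The Plod2 share was 10.3 percentage points higher in HS and the Plod3 share differed by -10.2 points, each with exact p = 0.1 in the two-sided permutation test over samples (0.15 adjusted over the 6 shares), while Plod1 had exact p = 1.0.

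**Figure D2:**
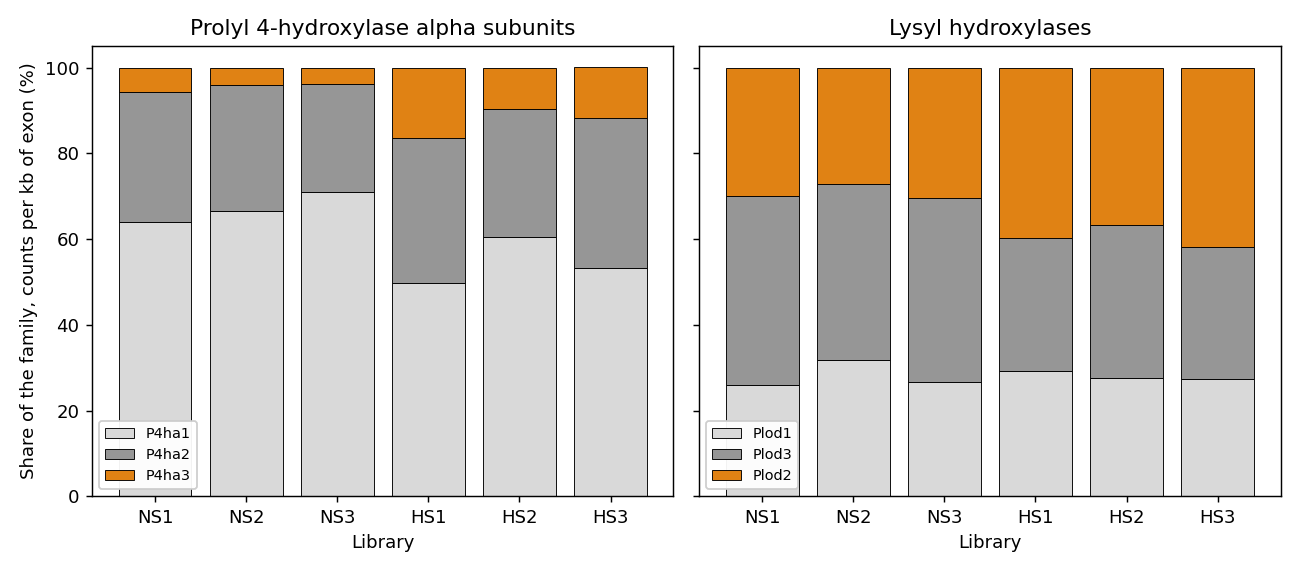
Share of each P4ha subunit (left) and each lysyl hydroxylase (right) in its family, in percent of counts per kb of exon, for the 3 NS and 3 HS libraries. The orange share is P4ha3 on the left, 3.72% to 5.67% in NS and 9.66% to 16.4% in HS, and Plod2 on the right, 27.1% to 30.3% in NS and 36.6% to 41.8% in HS.

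Serpinh1 encodes HSP47, a chaperone of the endoplasmic reticulum that binds the collagen triple helix. It had the smallest p of the 10 genes and the most counts, 5578 to 6962 in NS and 12334 to 21819 in HS. Serpinh1 (chromosome 7, 99345376 to 99353239, minus strand) stood at 820, 550 and 781 CPM in HS replicates 1 to 3 and at 244, 299 and 278 CPM in NS replicates 1 to 3. The lowest HS library was 1.84 times the highest NS library, the widest gap after that of P4ha3. The rise was 2.62-fold (log2 fold change 1.39 ± 0.157, SE, edgeR adjusted p = 0.006192). With each library left out its log2 fold change stayed between 1.28 and 1.55, and its call was lost without NS replicate 2 and without NS replicate 3 (adjusted p = 0.05092 and adjusted p = 0.05391).

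Fkbp10 encodes FKBP65, a prolyl isomerase of the endoplasmic reticulum that in human disease is needed for lysine hydroxylation of the chain ends. Fkbp10 (chromosome 11, 100415697 to 100424824, plus strand) stood at 120, 55.7 and 95.9 CPM in HS and at 29.1, 38.8 and 30.0 CPM in NS. It rose 2.78-fold (log2 fold change 1.47 ± 0.279, SE, edgeR adjusted p = 0.02735), the same fold as Plod2. Crtap (chromosome 9, 114375134 to 114390675, minus strand), the helper protein of prolyl 3-hydroxylase P3h1, stood at 89.2, 69.3 and 82.4 CPM in HS and at 53.3, 66.6 and 54.4 CPM in NS. HS replicate 2 was 1.04 times NS replicate 2, and the 1.38-fold difference was the smallest of the 10 genes and did not pass (log2 fold change 0.47 ± 0.126, SE, edgeR adjusted p = 0.05214).

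Pcolce works outside the cell, where it speeds the removal of the C-terminal propeptide of fibrillar procollagens. Pcolce (chromosome 5, 137605103 to 137613784, minus strand) stood at 199, 99.8 and 150 CPM in HS and at 76.4, 95.4 and 89.2 CPM in NS. HS replicate 2 lay only 1.05 times above NS replicate 2. The difference was 1.72-fold and did not pass (log2 fold change 0.78 ± 0.238, SE, edgeR adjusted p = 0.08962). With 1 library left out, edgeR's adjusted p ran from 0.004353 to 0.1841 for Crtap and from 0.0005212 to 0.2344 for Pcolce, and both passed in 1 of the 6 fits, that without HS replicate 2. Exons of 4 of the 10 genes overlap exons of other annotated genes, over 346 bases in Plod2, 538 in Plod3, 193 in Fkbp10 and 224 in Pcolce. No source used here says whether counting kept the strand or how it treated shared reads. Counts of these 4 can therefore lack reads in those bases or include reads of their neighbours.

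**Figure D3:**
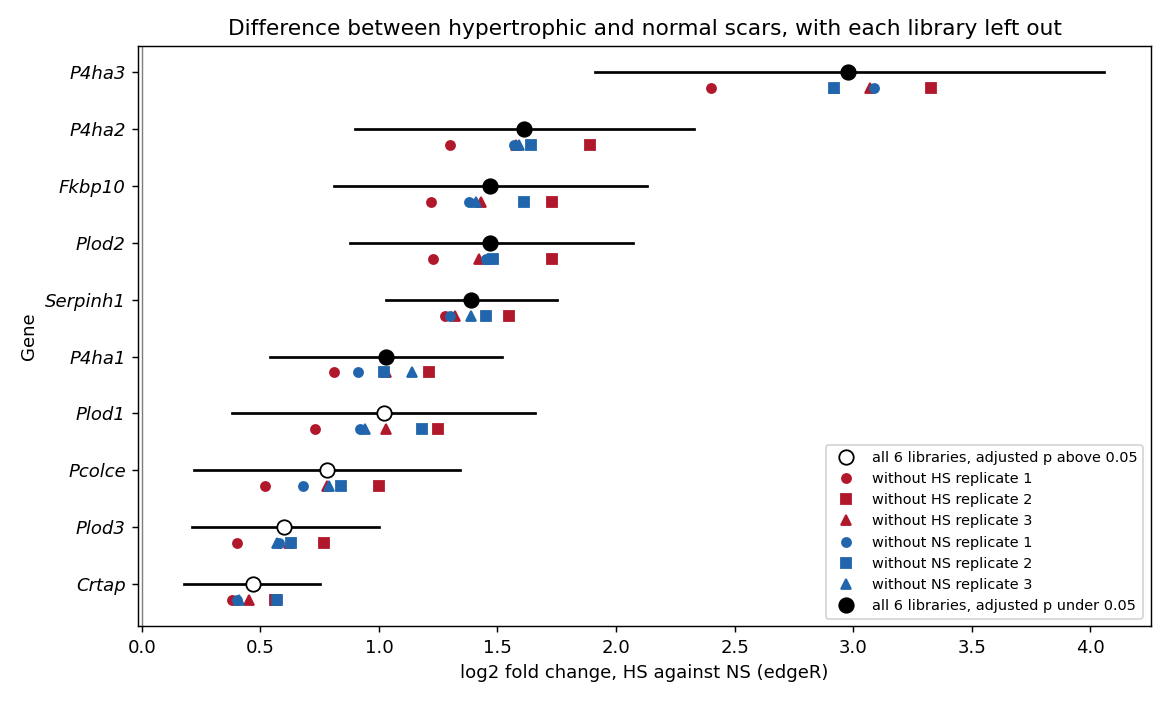
edgeR log2 fold change of HS against NS for each of the 10 genes (large circles, filled where the adjusted p is under 0.05, with the 95% interval as a line), and below each the same value with 1 library left out (red for HS, blue for NS). All values lie above 0, from 0.38 for Crtap to 3.33 for P4ha3, and leaving out HS replicate 1 (red circles) gave the lowest value of all 10 genes.

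Levels can be compared between genes only per length of exon, as RPKM (CPM per kb of exon). In NS the mean levels ran from 112 ± 11.4 RPKM for Serpinh1 (SD, n = 3) through 32.8 ± 4.16 for Crtap, 22.8 ± 2.53 for Pcolce, 11.1 ± 1.83 for Fkbp10, 9.25 ± 1.42 for P4ha1, 7.92 ± 0.364 for Plod3, 5.39 ± 0.0833 for Plod2, 5.25 ± 1.0 for Plod1 and 3.88 ± 0.174 for P4ha2 to 0.603 ± 0.0816 for P4ha3. Fkbp10 and P4ha1, P4ha1 and Plod3, and Plod2 and Plod1 overlapped in their NS values, and the other neighbours in that order did not. In HS the first 5 places and the last were held by the same genes, with Serpinh1 at 293 ± 59.9 RPKM and P4ha3 at 4.78 ± 2.93 RPKM. Plod2 (15 ± 5.31 RPKM) stood above Plod3 (12 ± 3.12 RPKM), and P4ha2 (11.9 ± 4.89 RPKM) above Plod1 (10.6 ± 3.79 RPKM), within the spread of the HS libraries.

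The chains on which these proteins act rose too. Of 9 fibrillar collagen genes tested, 6 were called higher and none lower, and their median log2 fold change was 1.5. The count was 6 or 7 without HS replicate 1 or 2, and 0 without HS replicate 3 or any 1 NS library. The smallest p-values among them were those of Col3a1 (4.05-fold), Col1a2 (2.70-fold), Col5a2 (3.86-fold) and Col5a1 (4.24-fold). Set against the summed CPM of Col1a1, Col1a2 and Col3a1 in the same library, the 10 genes together had a log2 ratio of -4.87, -4.54 and -4.73 in HS replicates 1 to 3 and of -4.12, -4.21 and -4.33 in NS replicates 1 to 3. The groups did not overlap, and the ratio differed by -0.49 (HS minus NS, exact two-sided permutation p = 0.1, 0.15 adjusted over 3 summed ratios). Serpinh1 was the largest part of the summed 10 genes, with a mean of 717 CPM in HS and 274 CPM in NS. Col3a1 was the largest part of the collagen sum, with a mean of 20720 CPM in HS and 5122 CPM in NS. Col3a1 rose more than Col1a2 or Col1a1 (2.64-fold), and ratios to each collagen gene alone were not tested. P4ha3 alone of the 10 was higher relative to the collagen sum, with a log2 ratio of -10.98, -11.76 and -11.55 in HS and -12.11, -12.82 and -12.79 in NS. Relative to the sum P4ha1, Plod1, Plod2, Plod3, Crtap and Pcolce were lower in every HS library than in any NS library, by -0.25 for Plod2 to -1.19 for Crtap, while P4ha2, Serpinh1 and Fkbp10 overlapped. Of the 10 ratios each of the 7 without overlap had exact p = 0.1, the smallest possible (0.143 adjusted over the 10). The share of all genes without overlap in this ratio was not computed. The collagen sum itself rose, so a gene of unchanged CPM would also be lower relative to it. The median log2 fold change over all genes tested was -0.01.

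Fibroblast markers rose in part. Of 9 such markers tested (Pdgfra, Pdgfrb, Dcn, Lum, Dpt, Thy1, Vim, Fbln1 and Dpp4), 5 rose and none fell, and the median log2 fold change over these markers was 0.87. Leaving out HS replicates 1, 2 and 3 in turn gave counts of 5, 8 and 1, and leaving out any 1 NS library gave 0. Lum, a small proteoglycan of collagen fibrils, rose 3.47-fold, Dpt 2.59-fold, Vim 2.28-fold and Dcn 1.83-fold. Pdgfra, Thy1, Fbln1 and Dpp4 did not pass, at log2 fold changes of 0.66, 0.51, 0.49 and -0.04, and Thy1 and Dpp4 overlapped between the groups. The summed level of the 9 markers was 6739, 3739 and 5668 CPM in HS replicates 1 to 3 and 2330 to 2668 CPM in NS, so HS replicate 2 was again the lowest of its group. Dcn, Lum and Vim were the most abundant markers and weigh most in that sum. Relative to these markers the 10 genes together stood at a log2 ratio of -1.96, -1.88 and -1.93 in HS and -2.07, -1.85 and -2.11 in NS, with overlap and a difference of 0.09 (exact two-sided permutation p = 0.4). Serpinh1 weighs most in the sum of the 10 genes. Its mean was 717 CPM in HS and 274 CPM in NS, where the 10 summed to 1016 to 1728 CPM and 555 to 675 CPM. The ratio of the other genes together, without Serpinh1, was not computed. Col1a1, Col1a2 and Col3a1 relative to the same markers did not overlap, at 2.66 to 2.90 in HS and 2.05 to 2.36 in NS (exact permutation p = 0.1). In bulk tissue more cells of a type and more RNA per cell cannot be told apart.

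Gene by gene the ratio to fibroblast markers went both ways. P4ha3 was higher in HS by 1.72 on the log2 scale, P4ha2 by 0.44 and Plod2 by 0.33, with no overlap between groups. Plod3, Crtap and Pcolce were lower without overlap, with differences of -0.51, -0.61 and -0.35. P4ha1, Plod1, Serpinh1 and Fkbp10 overlapped, with differences of -0.08, -0.11, 0.29 and 0.34. The 6 without overlap each had exact p = 0.1 in the permutation test (0.167 adjusted over the 10 ratios). The share of all genes without overlap in this ratio was not computed. The summed markers were themselves higher in HS (3739 to 6739 CPM) than in NS (2330 to 2668 CPM). A gene of unchanged CPM would therefore also be lower relative to them.

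**Figure D4:**
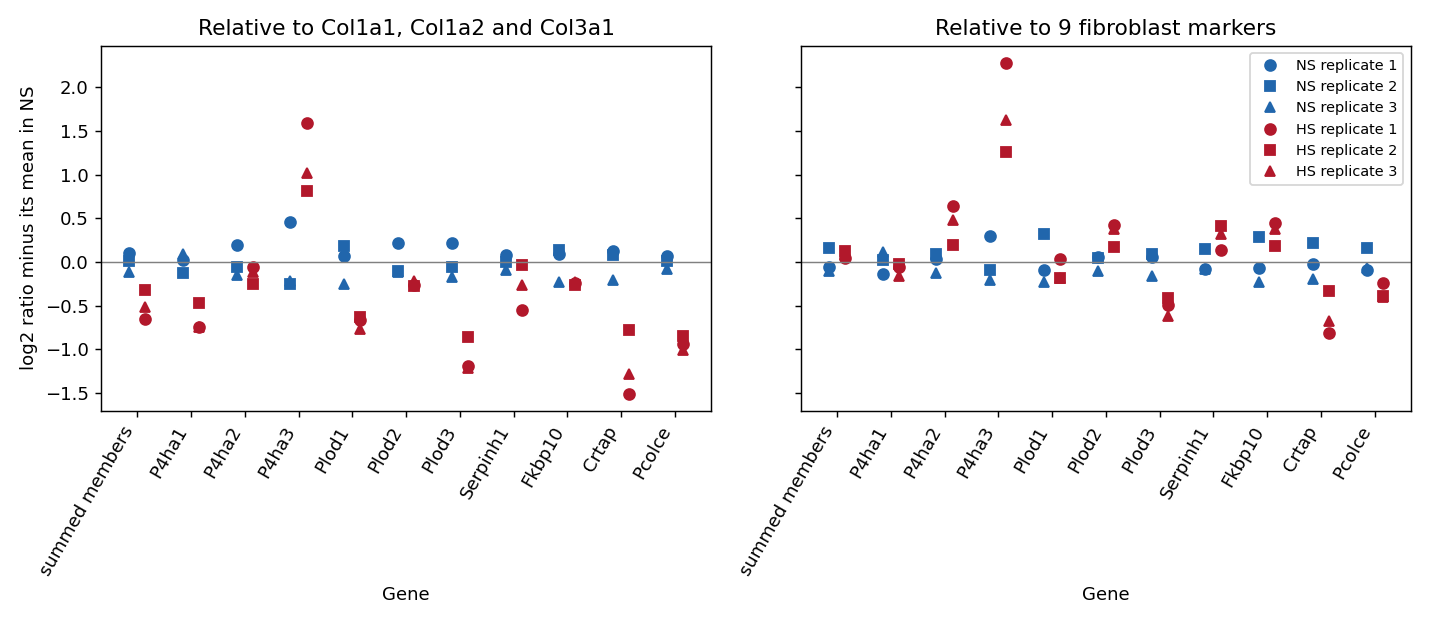
log2 ratio of the summed 10 genes and of each gene to collagen (left, Col1a1, Col1a2 and Col3a1) and to 9 fibroblast markers (right), each minus its mean in NS, for the 3 NS (blue) and 3 HS (red) libraries. P4ha3 lies above 0 in HS in both panels, Plod3, Crtap and Pcolce lie below 0 in both, and the summed genes lie below 0 on the left and among the NS libraries on the right.

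Markers of other cells the scars could hold were counted in the same way. Of 10 keratinocyte markers 1 fell (Krt5, log2 fold change -0.49) and none rose. The count of keratinocyte markers called was 9 without HS replicate 2, and 0 without any other single library. They had a summed level of 20001 to 31380 CPM in HS and 29097 to 38108 CPM in NS. Of 7 hair follicle markers 2 fell (Krt71 and Krt27; 0 to 5 called with 1 library left out), with 15195 to 18484 CPM in HS and 21132 to 24820 CPM in NS. Of 7 endothelial markers 5 rose, among them Pecam1 (2.96-fold), Kdr (2.20-fold), Emcn (2.76-fold) and Cdh5 (2.61-fold). Leaving out HS replicates 1, 2 and 3 in turn, 4, 7 and 2 endothelial markers were called, and 0 on leaving out any 1 NS library. Endothelial markers summed to 288 to 487 CPM in HS and 169 to 175 CPM in NS. Of 5 macrophage markers tested edgeR called 0, 4 with an unadjusted p under 0.05 and 4 with DESeq2. Without HS replicate 2 edgeR called all 5, and without any other single library 0. Their summed level was 283 to 767 CPM in HS and 252 to 284 CPM in NS (Cd68 2.26-fold and Adgre1 2.30-fold higher without passing). The part of these markers in the results was not tested.

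Muscle, fat and skeletal markers were counted last. Of 8 skeletal muscle markers Myh4 rose 9.36-fold and Myh2 fell by 1.60 on the log2 scale, with summed levels of 4603 to 8996 CPM in HS and 4796 to 5474 CPM in NS. Of 6 adipocyte markers edgeR called 0 (1 at an unadjusted p under 0.05 and 0 with DESeq2), with Lep at a log2 fold change of -0.72 and Fabp4 at 0.50 and summed levels of 863 to 1560 CPM in HS and 804 to 914 CPM in NS. Of 6 cartilage, bone and tendon markers tested edgeR called 0 (1 at an unadjusted p under 0.05 and 0 with DESeq2), and their median log2 fold change was -0.44. Of these 5 were below 0 (Sox9 at -0.40, Acan at -0.59, Sp7 at -0.60, Tnmd at -0.25 and Scx at -0.49) and Comp, at 2 to 24 counts a library, was above it at 1.39. Their summed level was lower in every HS library, at 105 to 149 CPM, than in any NS library, at 163 to 177 CPM. The bone genes Ibsp, Bglap and Runx2 had between 0 and 15 counts in any library and were not tested.

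Partners of the 10 genes in the endoplasmic reticulum rose in part. Of 18 such genes with counts, 16 were tested. Of these 9 rose, none fell and 7 did not pass, and the median log2 fold change was 0.59. By the smallest p these were led by Fkbp14, an isomerase related to Fkbp10 (2.41-fold, edgeR adjusted p = 0.007624), Sparc, a collagen-binding matricellular chaperone (2.57-fold), Sec23a, a coat protein of the vesicles that carry procollagen (1.53-fold), and P3h3, listed as Leprel2 (2.23-fold). The direct binding partners of the 10 genes, named here after their values were seen, differed in size. P3h1, listed as Lepre1, which forms a complex with Crtap, averaged 56.6 ± 20.0 CPM over the HS libraries against 21.7 ± 0.871 CPM in NS (SD over 3 libraries each) and rose 2.61-fold (edgeR adjusted p = 0.02028). Ppib, the third protein of that complex, averaged 222 ± 19.1 CPM over the HS libraries against 178 ± 5.51 CPM in NS without passing (1.24-fold, edgeR adjusted p = 0.0548). P4hb, the beta subunit of prolyl 4-hydroxylase, averaged 696 ± 73.7 CPM over the HS libraries against 537 ± 28.4 CPM in NS without passing (1.30-fold, edgeR adjusted p = 0.05644). Without HS replicate 3 and without NS replicate 1 the count of partners called was 1, without NS replicate 2 or 3 it was 0, and without HS replicate 2 it was 12.

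General chaperones of the endoplasmic reticulum, which serve many secreted proteins, rose in part. Of 16 tested, 6 rose and none fell, with a median log2 fold change of 0.36 and none above 0.48. On leaving out HS replicates 1, 2 and 3 in turn 5, 7 and 0 chaperones were called, and 0 on leaving out any 1 NS library. The count was 3 with no factor beyond the library total and 2 with replicate number as a block. Pdia4 (1.37-fold), Pdia6 (1.35-fold), Hsp90b1 (1.39-fold) and Pdia3 (1.32-fold) had the smallest p-values. Their summed level was 5142 to 5158 CPM in the HS libraries, so that HS replicate 2 did not stand apart for them, and 3871 to 4354 CPM in NS. Of 5 hydroxylases of prolines or asparagines outside collagen (P4htm, Egln1, Egln2, Egln3 and Hif1an) edgeR called 0, none had an unadjusted p under 0.05 and DESeq2 called 0, with a median log2 fold change of 0.01. Hif1an, which modifies hypoxia-inducible factors, stood at a log2 fold change of -0.16 and P4htm at 0.86, the latter at 1.49 ± 1.13 CPM in HS (SD, n = 3).

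The procollagen-cutting proteases that were tested and the second enhancer did not pass. Of 9 such genes listed, Bmp1 and Mep1b were not analysed here, and Tll2, Adamts14 and Mep1a were removed by the filter on low counts. Of 4 genes tested edgeR called 0, 3 had an unadjusted p under 0.05 and DESeq2 called 3 (2 higher and 1 lower). The count was 1 (lower) without HS replicate 1, 2 (both higher) without HS replicate 2, and 0 without any other single library. It was 1 (higher) with limma-voom, with no robust step, with no factor beyond the library total and with a filter of 1 CPM in 3 libraries. Adamts2, which removes N-terminal propeptides, averaged 293 ± 115 CPM over the HS libraries against 128 ± 14.8 CPM in NS (2.29-fold, SD, n = 3, edgeR adjusted p = 0.0552). Tll1, a protease of the family that removes C-terminal propeptides, was 1.97-fold higher without passing (edgeR adjusted p = 0.08368). Pcolce2, the paralogue of Pcolce, had a log2 fold change of -0.63 (edgeR adjusted p = 0.0977, named after its value was seen) where that of Pcolce was 0.78, and neither passed.

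**Figure D5:**
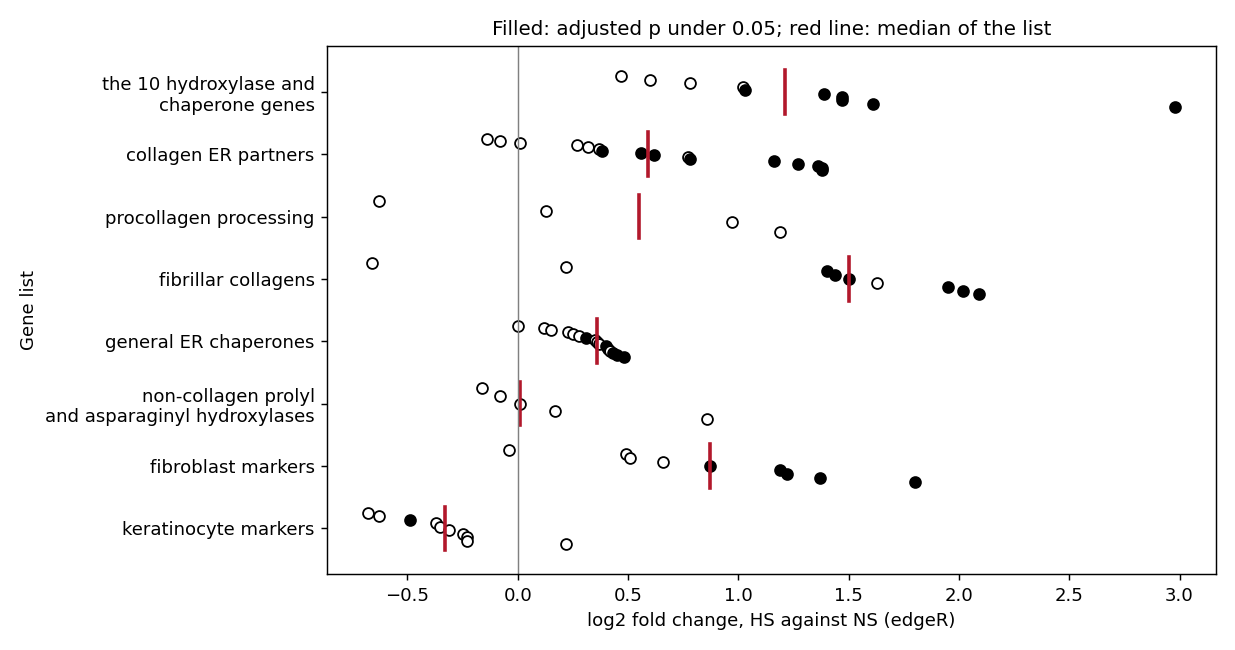
edgeR log2 fold change of HS against NS for the tested genes of 8 lists (points, filled where the adjusted p is under 0.05), with the median of each list as a red line. The 10 hydroxylase and chaperone genes have a median of 1.21, fibrillar collagens 1.5, fibroblast markers 0.87, partners in the endoplasmic reticulum 0.59, general chaperones 0.36 and non-collagen hydroxylases 0.01.

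Genes outside the 10 whose profile lay nearest to their mean profile were found by the root mean square distance of log2 CPM over the 6 libraries, each gene centred on its NS mean. Among 10188 genes with a mean of at least 10 CPM the nearest 5 were Entpd1 (0.0415), an enzyme that splits extracellular ATP, Mmp14 (0.0491), a membrane-bound collagenase, Fam13c (0.0693), Ptprc (0.0737), the pan-leukocyte antigen CD45, and Tnfrsf23 (0.0747). The 10 genes themselves lay between 0.144 (Plod2) and 1.15 (P4ha3) from their own mean. Plod2, Fkbp10 (0.162) and Serpinh1 (0.166) were the most typical, and P4ha3 and Crtap (0.569) the least.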

How the data were processed

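RNA of 6 skin scars was depleted of ribosomal RNA and read as paired ends, per the labels' protocols. The counts per gene are the authors' own, untransformed, as their file headers state. The submitters' processing notes name cutadapt 1.9.3, HISAT2 2.0.4, HTSeq 0.9.1, edgeR and mm10; the sources used here give neither settings nor strand. The 6 columns of normalized values were not used. Groups came from the sample titles.

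edgeR 4.0.16 in R 4.3.3 was fitted to all genes kept by filterByExpr (minimum count 10; 14513 kept, 3059 removed), with TMM factors of 0.955 to 1.033, group as the only term, a robust quasi-likelihood test and Benjamini-Hochberg adjustment over all genes at 0.05. SE was taken from the F statistic. CPM values are TMM-normalised. Shares and ratios were compared with exact permutation tests (SciPy 1.17.1). Lengths and coordinates are GENCODE M21 exon unions, which 17398 of 17572 identifiers matched. Chi-square per gene within groups (14.2 to 106.8) marked no library as a copy. The fit was tested on simulated data. Alternatives were other size factors, other filters, a block by replicate number, leaving out single libraries, DESeq2 1.42.0, limma-voom (limma 3.58.1) and no robust step; the ratio to fibroblast markers was added after seeing the data. All 14 lists, that of the 10 genes among them (129 of 132 entries in the table), were chosen with earlier results of these data known. Named from each list were up to 4 called genes with the smallest p, or the 2 with the smallest p where none was called, and the 5 genes nearest in profile. Bmp1, Mep1b and Krt85 were not analysed here.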

Additional observations from a re-analysis of the deposited data

How the results depend on the processing

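Over the 14 alternatives, each of the 10 genes kept a positive log2 fold change, and 106 of 140 single results kept their side of the threshold, 24 lost a call and 10 gained one. The count of the 10 genes called was 10 with DESeq2 and ranged from 0 to 10 with 1 library left out. It was 7 with no filter on low counts (Crtap added) and with no robust step (Plod1 added), and 5 with limma-voom. For partners in the endoplasmic reticulum the count ranged from 0 to 12 with 1 library left out (9 with all), and for all genes from 25 to 3257, with 2435 by DESeq2 (1284 with all libraries by edgeR). Fewer libraries enter those fits. With no factor beyond the library total the split over all genes was 930 higher and 585 lower, against 919 and 365. The replicate number as a block gave 5 of the 10 genes (Fkbp10 lost, adjusted p = 0.05264), 6 partners and 1001 genes in all. Same-numbered libraries did not deviate together (r between 0.005 and 0.033), and 2 of 6 libraries correlated best with their own number. This gave no sign that the numbers pair the samples, but so few libraries in a group cannot exclude it. The ratio of the 10 genes to collagen ranged from -0.58 to -0.41 with 1 library left out, and with fibroblast markers in place of collagen it was 0.09. The P4ha3 share difference ranged from 6.31 to 9.67 points and that of Plod2 from 9.06 to 11.7 with 1 library left out. Depth limits mainly P4ha3 in NS.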

Other observations

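Serpinh1 and P4ha3 are 932 kb apart on chromosome 7, and both rose in HS. The 13 tested genes between them had a median log2 fold change of 0.00.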
